A study of Homo sapiens with 6 samples.

Results

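The miR-424, miR-503, miR-542 and miR-450 hairpins form a cluster of microRNAs (miRNAs) on chromosome X. Its members were chosen by name: every row called hsa-miR-424-5p, hsa-miR-424-3p, hsa-miR-503-5p, hsa-miR-542-3p, hsa-miR-542-5p, hsa-miR-450a-5p or hsa-miR-450b-5p, which gave 7 of the 2588 mature miRNAs in each count table. They were selected on a reading of these same libraries, so the values below describe them and are not tests. Small RNA was sequenced from A549, a human lung carcinoma epithelial cell line, and from BEAS-2B, a line of immortalised bronchial epithelium. Both were labelled wild type and were left untreated or exposed for 48 h to TGF-β1 at 1 or 5 ng/mL, a cytokine used to model pulmonary fibrosis in epithelial cells. There were 6 libraries, 1 for each line and dose, so no difference has a replicate check, no p-value was computed, and every 95% interval covers counting error only.

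A miRNA is cut from a hairpin in a longer primary transcript, and either arm of the hairpin, called 5p or 3p, can become the mature product that guides silencing of messenger RNAs. The seed, near the 5′ end of the mature product, sets which messages are recognised. Hairpins of a cluster can share a primary transcript, yet each mature product is processed and degraded separately. The miR-424 and miR-503 hairpins carry 5p arms related to miR-15 and miR-16, a family known for silencing cyclins and other cell cycle genes. The miR-450a and miR-450b hairpins carry closely related 5p arms with another seed.

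The mature sequences are shown first because the cluster divides by them. RefSeq sequences on GRCh38.p14 matched 6 of the 7 members, and hsa-miR-542-3p is given by name. Capitals mark the seed, bases 2 to 8 from the 5′ end.
hsa-miR-424-5p: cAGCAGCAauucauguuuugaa
hsa-miR-503-5p: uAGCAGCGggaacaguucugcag
hsa-miR-16-5p: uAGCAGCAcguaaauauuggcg
hsa-miR-424-3p: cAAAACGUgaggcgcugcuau
hsa-miR-542-5p: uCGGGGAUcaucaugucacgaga
hsa-miR-450a-5p: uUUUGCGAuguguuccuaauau
hsa-miR-450b-5p: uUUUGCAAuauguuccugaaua
The seed of miR-424-5p was the same as that of miR-16-5p, which is not a member and is shown for this match, and 7 miRNAs of the table carried it. miR-503-5p differed from it at the last base of the seed. miR-450a-5p and miR-450b-5p were identical at 16 of 22 positions, and the first difference, G7A with miR-450a-5p taken as the reference and positions counted from the 5′ end, lay within the seed. Among the 6 members with a sequence, the 2 miR-450 products were also the poorest in G and C. They had 31.8% for miR-450a-5p and 27.3% for miR-450b-5p, against 36.4% for miR-424-5p, 52.4% for miR-424-3p and 56.5% for miR-503-5p. Without a sequence, miR-542-3p could not be placed in this ranking.

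On GRCh38.p14 all hairpins lay on the minus strand of chromosome X within 6527 bp. In the direction of transcription they ran MIR424 (chrX:134546614-134546711), MIR503 (chrX:134546328-134546398), MIR542 (chrX:134541341-134541437), MIR450A2 (chrX:134540508-134540607), MIR450A1 (chrX:134540341-134540431) and MIR450B (chrX:134540185-134540262). MIR424 and MIR503 were 215 bp apart, and 4890 bp separated MIR503 from MIR542. In the GENCODE 29 annotation, MIR503 lay in an intron of the long noncoding RNA gene MIR503HG, and MIR424 partly overlapped the exon at its 5′ end. The other hairpins overlapped no annotated noncoding transcript on that strand. miR-450a-5p can come from MIR450A1 or MIR450A2, and the counts cannot tell these sources apart. The MIR424 hairpin is printed because both of its arms were abundant, with the 5p arm first and the 3p arm second in capitals.
MIR424: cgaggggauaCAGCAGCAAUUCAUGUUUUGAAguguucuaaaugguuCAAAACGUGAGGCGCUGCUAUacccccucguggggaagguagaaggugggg

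Total counts ranged from 633318 to 900424 per library. The trimmed mean of M-values (TMM) factor, which adjusts each library's size for its composition, ranged from 0.829 to 1.32 and was highest in untreated BEAS-2B, where miR-21-5p took 35.4% of the counts against 47.6% to 57.2% in the other libraries. As epithelial miRNAs, miR-200c-3p had from 35 to 38 counts in A549 and from 6 to 12 in BEAS-2B, and miR-205-5p had from 0 to 2 counts. Both lines are labelled epithelial, and miR-205-5p was at or below the floor of 3 counts in all libraries. Normalised counts below are counts divided by the TMM-adjusted library size and put on the scale of the mean library. The normalised data value (ND) is log2 of the normalised count plus 1, and log2 ratios are differences in ND. A member is said to have risen or fallen where ND was at least 8 in the higher of both libraries, a normalised count of 255, and the fold change was at least 1.4. These thresholds are the study's own, and they are size rules without a test. miR-200b-3p, of the same family as miR-200c-3p, met the ND threshold in BEAS-2B at 1 and 5 ng/mL against control. Its log2 ratios there were 0.00 and -0.11. In A549 it met the threshold at 1 ng/mL, with a ratio of 0.91. The 2 scarce miRNAs above therefore do not stand for epithelial miRNAs in general.

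The 7 members together had 2712 counts in untreated A549, 2183 with 1 ng/mL and 1566 with 5 ng/mL. In BEAS-2B they had 2408, 1847 and 2222 counts in the same order. They made up 0.343% of untreated A549 (exact Clopper-Pearson 95% interval 0.331 to 0.357) and 0.327% of untreated BEAS-2B (0.314 to 0.341). After normalisation the A549 sums were 2822, 2192 and 1822, and those of BEAS-2B were 1852, 2138 and 2178. The A549 sum was lower in both treated libraries, and the log2 ratio to control was -0.36 for the lower dose (95% interval -0.45 to -0.28) and -0.63 for the higher (-0.72 to -0.54). Whether the sum went lower from 1 to 5 ng/mL depended on the scaling, since the shares of the treated A549 libraries were 0.242% (0.232 to 0.253) and 0.247% (0.235 to 0.260), and total-count scaling gave log2 ratios of -0.50 and -0.47. In BEAS-2B it was 0.21 (0.12 to 0.30) and 0.23 (0.15 to 0.32), but these values became -0.22 and -0.18 when libraries were scaled by their total counts and -0.38 and -0.12 without scaling, so no direction is given for the BEAS-2B sum. Total-count scaling moved the median of all miRNAs in BEAS-2B by -0.43 and -0.41 at the 2 doses. The difference between lines at 5 ng/mL, A549 minus BEAS-2B, was -0.86 (-0.99 to -0.74), and it ranged from -1.05 to -0.30 over the scalings tried.

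**Figure D1:**
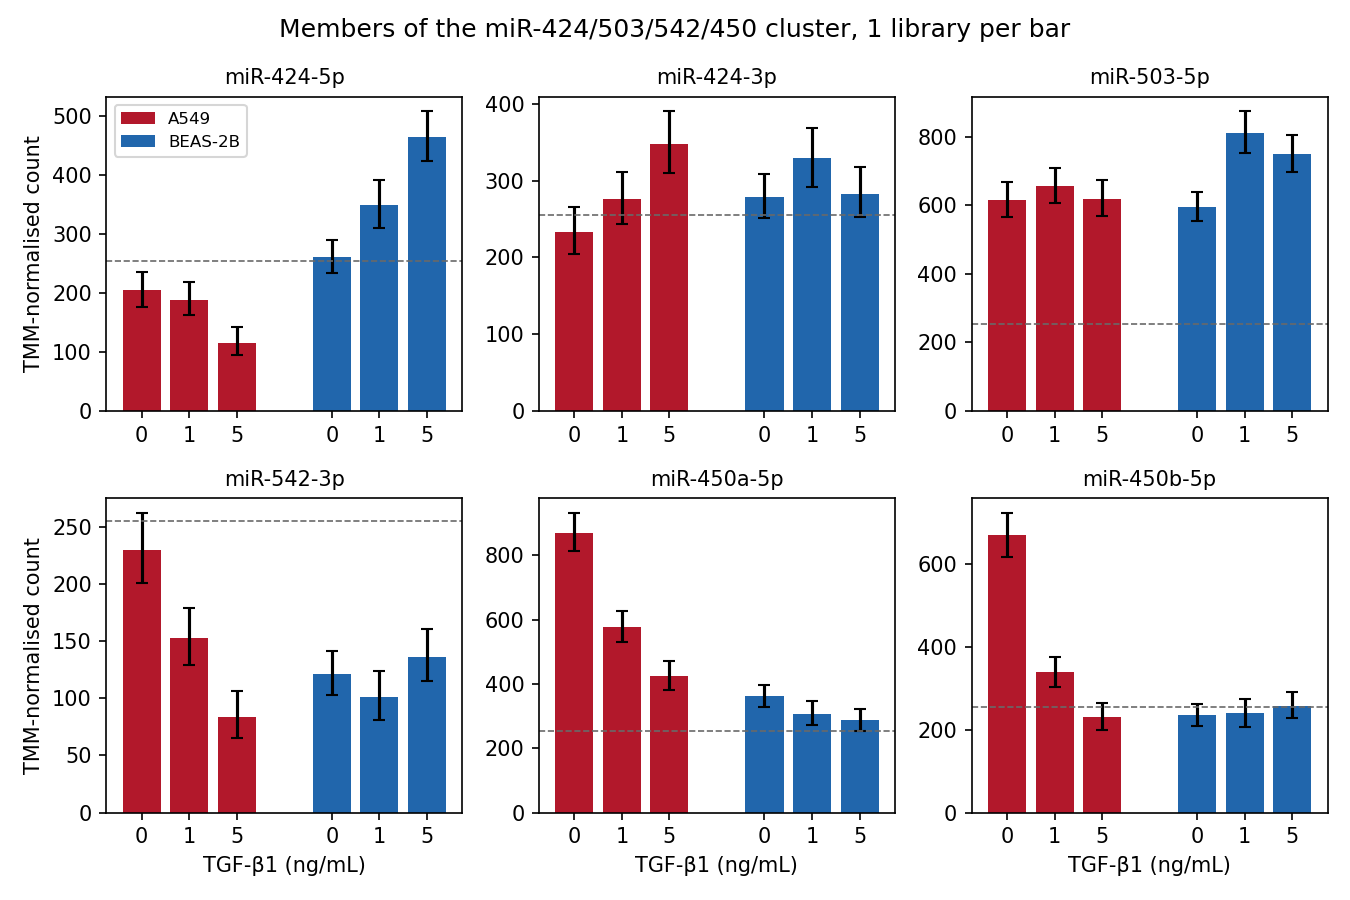
TMM-normalised count (linear axis from 0) of 6 members in each library, by TGF-β1 dose in ng/mL. Each bar is 1 library, red for A549 and blue for BEAS-2B, error bars are exact Poisson 95% intervals of the count, and the dashed line is the normalised count of 255 that an ND of 8 requires; the miR-450a-5p and miR-450b-5p bars step down with dose in A549, and the miR-424-5p bars step up in BEAS-2B, where the step at 1 ng/mL was absent with total-count scaling and without scaling.

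In A549 the miR-450 products fell at both doses. At 5 ng/mL, 4 of the 7 members reached the ND threshold, of which 2 fell, 1 rose and 1 did not pass the fold criterion. Of those called, miR-450b-5p (ND 9.39 untreated, 7.85 treated) and miR-424-3p (7.87 and 8.45) reached an ND of 8 only in the library where they were higher. Over all miRNAs that reached the threshold, 53.2% were past the criteria in either direction, 26.2% lower and 27.0% higher. The median log2 ratio was -0.51 over the 4 members and -0.03 over all 141 miRNAs. With 1 ng/mL, 2 of 4 members fell and none rose, against 48.9% of all miRNAs called in either direction and 21.9% called lower. With 4 eligible members that share a cluster, nothing is read from the gap between their share and these backgrounds, which the selection of the members affects.

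miR-450b-5p, the last hairpin of the cluster, had 642 counts in A549 without TGF-β1, 337 with 1 ng/mL and 198 with 5 ng/mL. The highest library had more than 3 times the count of the lowest, and the 3 Poisson intervals of the normalised values (668, 338 and 230) did not overlap. Its log2 ratio was -0.98 at the lower dose (-1.18 to -0.79) and -1.53 at the higher (-1.77 to -1.30), a 2.89-fold fall. Counted from the most negative ratio, it stood at place 3 of 137 miRNAs at the lower dose and at place 2 of 141 at the higher. Between 1 and 5 ng/mL it fell again, by 0.55 on the log2 scale (-0.81 to -0.30). With the main TMM factors it was the 1 member called in that comparison, where 16.9% of all miRNAs were called and 8.46% were lower. Its ND was 8.41 at 1 ng/mL and 7.85 at 5 ng/mL, so only the higher library reached 8. With total-count scaling this step was -0.26, short of 1.4-fold, and no other scaling lost the call. Other scalings added calls for this step: miR-450a-5p lower without scaling (-0.66) and with TMM on miRNAs with 10 or more counts (-0.50), and miR-424-3p higher with total-count scaling (0.63).

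miR-450a-5p, its close relative in sequence, had 837, 576 and 365 counts in the A549 libraries at 0, 1 and 5 ng/mL. It was the most abundant member in untreated A549 and took the second place behind miR-503-5p at both doses. Normalised to 871, 578 and 425, it fell by 0.59 on the log2 scale with 1 ng/mL (-0.75 to -0.44) and by 1.03 with 5 ng/mL (-1.22 to -0.86). This was a 2.05-fold fall at the higher dose, at place 15 of 141.

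miR-542-3p, from the hairpin just before the miR-450 group, had 221, 152 and 72 counts. These are normalised counts of 230, 153 and 83.8, each below 255, so it was not eligible for a call. The log2 ratio at 5 ng/mL was -1.45 (-1.86 to -1.07), close in size to that of miR-450b-5p. The opposite arm, miR-542-5p, had 0 counts in all A549 libraries and 0, 1 and 1 in BEAS-2B, all under the floor of 3 counts that a count of 0 allows, so no ratio is given.

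The products of the first hairpins differed among themselves. miR-503-5p had 591, 655 and 532 counts in A549, normalised to 615, 658 and 619, and its log2 ratio at 5 ng/mL was 0.01 (-0.16 to 0.18). This interval lies within the 1.4-fold criterion on both sides. miR-424-3p had 224, 275 and 299 counts and rose 1.49-fold at 5 ng/mL, a value of 0.58 on the log2 scale (0.32 to 0.83). This call was lost with DESeq2 size factors, at 0.48, and with quantile normalisation or no scaling, at 0.42, while the direction stayed. miR-424-5p, from the same hairpin, had 197, 188 and 100 counts, and its log2 ratio of -0.81 (-1.18 to -0.46) had the other sign. Its interval overlapped that of miR-450a-5p, and the value ranged from -0.97 to -0.66 over the scalings tried. It stayed at an ND of 7.69 or less in A549 and was not eligible for a call there.

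**Figure D2:**
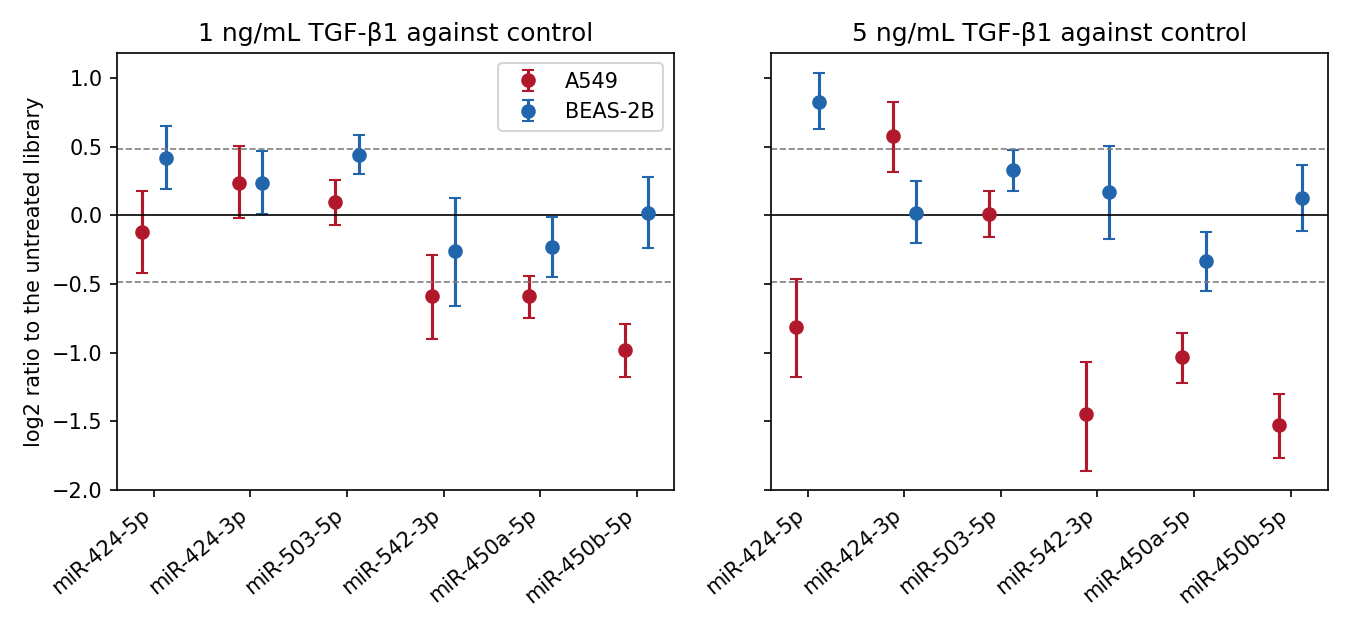
Log2 ratio to the untreated library for 6 members (vertical axis, log2 scale) at 1 ng/mL (left) and 5 ng/mL (right), A549 in red and BEAS-2B in blue. Points are single-library ratios with exact 95% counting intervals, and dashed lines mark a 1.4-fold change; at 5 ng/mL the A549 points run from -1.53 for miR-450b-5p to 0.58 for miR-424-3p, while the BEAS-2B points run from -0.33 for miR-450a-5p to 0.83 for miR-424-5p.

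In BEAS-2B, miR-424-5p was the 1 member past the criteria at 5 ng/mL, of 5 that reached the ND threshold. In that comparison 36.0% of all miRNAs were called and 20.0% were higher. miR-424-5p had 339 counts in the untreated library, 302 with 1 ng/mL and 474 with 5 ng/mL, normalised to 261, 350 and 465. On the TMM scale the value was higher at each higher dose, and the log2 ratios were 0.42 (0.19 to 0.65) and 0.83 (0.63 to 1.04), the latter a 1.78-fold rise. The 1 ng/mL ratio was -0.00 with total-count scaling and -0.17 without scaling. At 5 ng/mL the ratio stayed positive under every scaling, but it was 0.42 with total-count scaling and 0.48 without scaling, both short of 1.4-fold. It stood at place 113 of 125 from the lowest.

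No member passed the criteria in BEAS-2B at 1 ng/mL, of 4 that reached the ND threshold, where 29.2% of all miRNAs did. miR-503-5p had 775, 701 and 764 counts in BEAS-2B, and its log2 ratios of 0.44 (0.30 to 0.59) and 0.33 (0.18 to 0.48) were short of 1.4-fold. Without miR-21-5p in the total, its ratio at 5 ng/mL was 0.51, past the criteria as a rise. miR-450a-5p, with 470, 266 and 293 counts, had ratios of -0.23 (-0.45 to -0.01) and -0.33 (-0.55 to -0.12). It was past the criteria as a fall at both doses with total-count scaling, at -0.66 and -0.74, and without scaling, at -0.82 and -0.68, and at 5 ng/mL with quantile normalisation, at -0.53. miR-450b-5p had 305, 206 and 262 counts and ratios of 0.02 (-0.24 to 0.28) and 0.13 (-0.11 to 0.37). miR-542-3p had 157, 87 and 139 counts, and miR-424-3p had 362, 284 and 289 with a ratio of 0.02 (-0.20 to 0.25) at 5 ng/mL. The signs of miR-503-5p, miR-450b-5p, miR-542-3p and miR-424-3p at 5 ng/mL turned negative under total-count scaling and without scaling. No member was past the criteria between 5 and 1 ng/mL in BEAS-2B, against 6.61% of all miRNAs, although miR-424-5p, at 0.41, reached 0.50 with quantile normalisation, 0.55 without miR-21-5p in the total and 0.65 without scaling, each past them.

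Set beside each other at 5 ng/mL, the lines differed most in miR-450b-5p, with A549 minus BEAS-2B at -1.66 (-2.01 to -1.33), in miR-424-5p at -1.64 (-2.07 to -1.24) and in miR-542-3p at -1.62 (-2.16 to -1.10). The difference was -0.70 (-0.99 to -0.42) for miR-450a-5p and -0.32 (-0.55 to -0.09) for miR-503-5p. For miR-424-3p it was 0.55 (0.21 to 0.90). With total-count scaling the difference was -1.10 for miR-450b-5p, -1.08 for miR-424-5p and -1.05 for miR-542-3p, but only -0.14 for miR-450a-5p, and for miR-503-5p it turned to 0.25. At 1 ng/mL the interval reached 0 for miR-424-3p, at 0.00 (-0.34 to 0.35), and for miR-542-3p, at -0.33 (-0.83 to 0.17). Without scaling, the 1 ng/mL difference was negative for miR-450b-5p alone, at -0.36.

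Since the scaling between libraries affects these ratios, the members were also compared within each library, where scaling has no part. The ratio of miR-424-3p to miR-424-5p, the 2 arms of the hairpin printed above, was 1.14 in untreated A549 (0.935 to 1.38) and 1.07 in untreated BEAS-2B (0.918 to 1.24), so the arms were near equal in both. In A549 it was 1.46 with 1 ng/mL (1.21 to 1.77) and 2.99 with 5 ng/mL (2.38 to 3.79). In BEAS-2B it was 0.940 (0.797 to 1.11) and 0.610 (0.525 to 0.707). At 5 ng/mL the 3p arm thus outnumbered the 5p arm in A549, and the 5p arm outnumbered the 3p arm in BEAS-2B. The ratio changed 2.63-fold in A549 (1.93 to 3.58) and 0.571-fold in BEAS-2B (0.461 to 0.707) from the untreated library of the line. The changes at 1 ng/mL were 1.29-fold (0.977 to 1.69) and 0.881-fold (0.703 to 1.10), with both intervals holding 1.

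For scale, 27 hairpins had at least 50 counts of each arm in every library. The median absolute log2 change of the arm ratio at 5 ng/mL was 0.51 in A549 and 0.31 in BEAS-2B, and the miR-424 changes of 1.39 and -0.81 took places 2 and 3 by size. By the difference between the lines miR-424 came first of the 27, at 2.20, and was followed by miR-30a at 1.80 and miR-30e at 1.79. The arm ratio moved in opposite directions in the 2 lines for 21 of the 27 hairpins, so a change of this kind was not particular to miR-424. Some of these opposite pairs were small, such as -0.02 in A549 and 0.14 in BEAS-2B for miR-10a. Across the 21 hairpins with both arm sequences, the excess of G and C in the 3p arm had a Spearman rho of 0.37 with the change in A549 and of -0.13 in BEAS-2B. These hairpins share libraries, and the part of base composition in the miR-424 ratio was not tested.

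**Figure D3:**
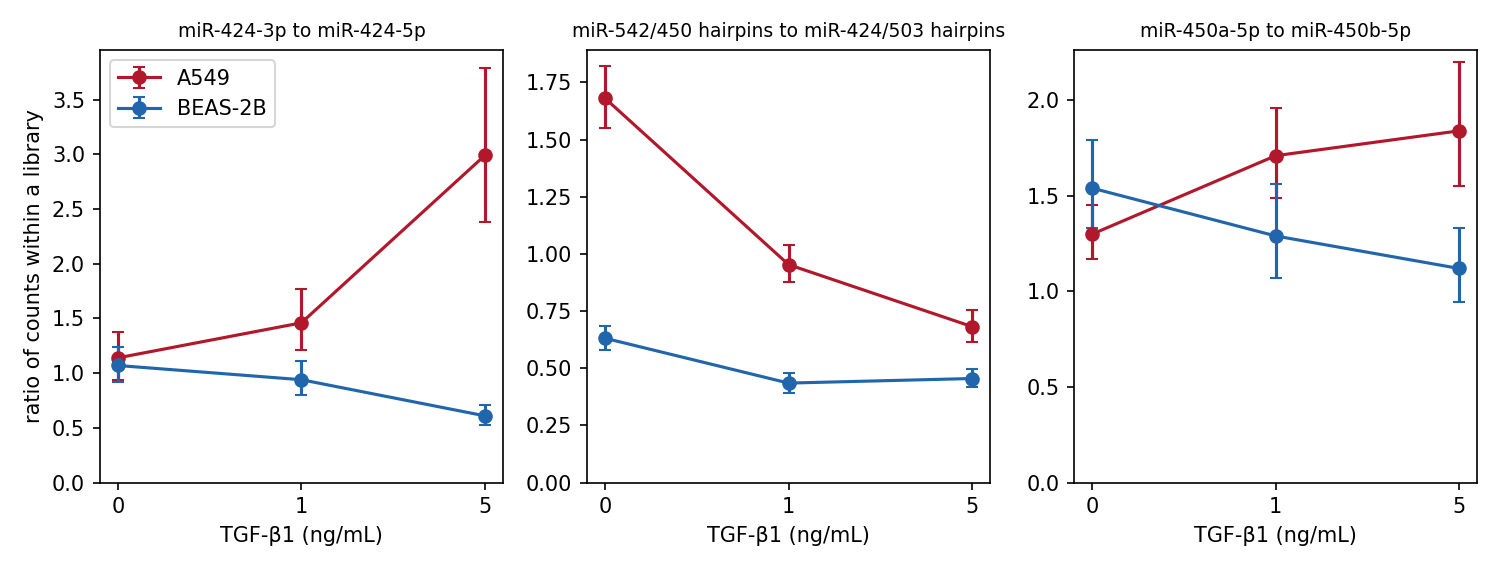
Ratio of counts within each library (linear axis from 0) against TGF-β1 dose (0, 1 and 5 ng/mL, evenly spaced), A549 in red and BEAS-2B in blue, with exact 95% intervals and 1 library per point. The miR-424-3p to miR-424-5p ratio parts from near 1 to 2.99 in A549 and 0.610 in BEAS-2B, the ratio of the miR-542 and miR-450 to the miR-424 and miR-503 hairpins is lower in treated than in untreated libraries of both lines, and the miR-450a-5p to miR-450b-5p ratio moves apart between the lines.

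Counts were also summed by the position of the hairpins, where miR-503-5p is the largest part of the miR-424 and miR-503 sum in every library. Single members did not all follow these sums, as the overlap of miR-424-5p with miR-450a-5p in A549 shows. The miR-542 and miR-450 hairpins had 1.68 counts for each count of the miR-424 and miR-503 hairpins in untreated A549 (1.55 to 1.82), 0.953 with 1 ng/mL (0.875 to 1.04) and 0.682 with 5 ng/mL (0.616 to 0.755). In BEAS-2B this ratio was 0.631 (0.581 to 0.686), 0.435 (0.393 to 0.481) and 0.455 (0.416 to 0.498). It was lower in every treated library than in its untreated library, by a factor of 0.406 in A549 (0.357 to 0.462) and 0.721 in BEAS-2B (0.637 to 0.815) at 5 ng/mL. Treated A549 at 5 ng/mL came close to untreated BEAS-2B, and their intervals overlapped. Within the miR-450 group, the ratio of miR-450a-5p to miR-450b-5p was 1.30, 1.71 and 1.84 over the A549 doses, whereas the BEAS-2B libraries had 1.54, 1.29 and 1.12. It changed 1.41-fold (1.15 to 1.74) and 0.726-fold (0.579 to 0.910) at 5 ng/mL, in opposite directions.

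The make-up of the cluster therefore shifted. In untreated A549, miR-450a-5p gave 30.9% of its counts, miR-450b-5p 23.7% and miR-503-5p 21.8%, and at 5 ng/mL miR-503-5p led with 34.0%, ahead of miR-450a-5p with 23.3% and miR-424-3p with 19.1%. In BEAS-2B, miR-503-5p led with 32.2% in the untreated library and 34.4% at 5 ng/mL, while miR-424-5p went from 14.1% to 21.3%.

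**Figure D4:**
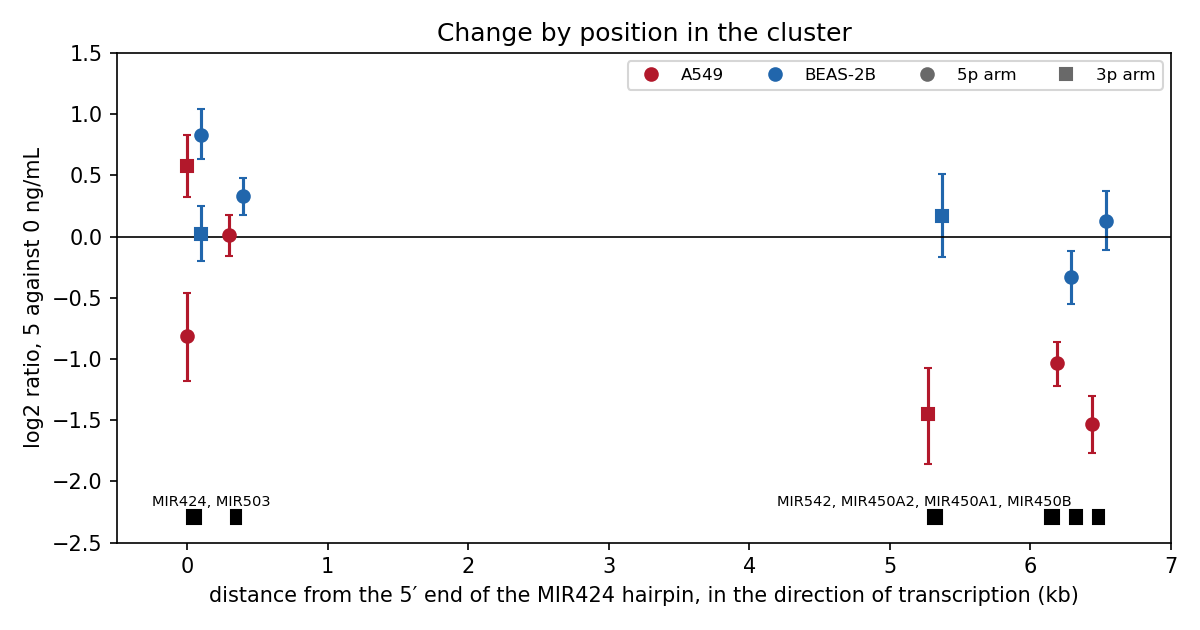
Log2 ratio at 5 against 0 ng/mL (vertical axis) by distance in kb from the 5′ end of the MIR424 hairpin, in the direction of transcription, with A549 in red and BEAS-2B in blue (shifted slightly sideways), circles for 5p and squares for 3p arms, error bars the 95% counting intervals and black boxes the hairpins. miR-450a-5p is drawn midway between its 2 hairpins; the A549 points at MIR542 and beyond lie between -1.53 and -1.03, and the 3 A549 points at MIR424 and MIR503 lie between -0.81 and 0.58.

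Without TGF-β1 the lines differed most in the miR-450 products. Of 5 members that reached the ND threshold, miR-450b-5p was higher in A549 by 1.51 on the log2 scale (1.31 to 1.71) and miR-450a-5p by 1.27 (1.10 to 1.43). These were the 2 members past the criteria, beside 68.9% of all miRNAs in either direction and 40.7% higher in A549. Of them, miR-450b-5p reached an ND of 8 only in A549, at 9.39 against 7.88 in BEAS-2B. miR-542-3p had a log2 difference of 0.92 (0.63 to 1.23) at an ND below 8. miR-503-5p, with 0.04 (-0.11 to 0.20), lay within 1.4-fold, and the miR-424 arms were at -0.35 (-0.61 to -0.09) for 5p and -0.26 (-0.50 to -0.01) for 3p. The miR-450 calls held under every scaling tried, with total counts giving 0.97 for miR-450b-5p and 0.73 for miR-450a-5p. That scaling added 3 lower calls, at -0.49 for miR-503-5p, -0.88 for miR-424-5p and -0.79 for miR-424-3p. Both miR-424 arms were also called lower with quantile normalisation, at -0.61 for 5p and -0.59 for 3p, and without scaling, at -0.78 and -0.69. Scaling-free, the ratio of the miR-542 and miR-450 to the miR-424 and miR-503 hairpins was 2.66 times as high in A549 (2.37 to 2.98).

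Other arms of these hairpins were rare. miR-503-3p had from 0 to 6 counts per library, miR-450a-2-3p from 3 to 11 and miR-450a-1-3p from 1 to 5, and miR-450b-3p had 0 in all libraries. The floor of 3 counts, set per library, is a normalised count of 2.31 to 3.49. No change is given for them.

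Base composition moved with the A549 values. At 5 ng/mL, with the members left out, the 25 miRNAs below 40% G and C had a median log2 ratio of -0.32, and the 53 with 50% or more had 0.26. With the members included, the Spearman rho across 131 miRNAs with a sequence was 0.24 in A549 and, across 116, -0.08 in BEAS-2B. miRNAs of a library share its depth and preparation and are not independent. With a linear trend on G and C content removed, the A549 log2 ratio was -1.10 for miR-450b-5p, -0.70 for miR-450a-5p and 0.47 for miR-424-3p, so both miR-450 products stayed beyond 1.4-fold and miR-424-3p came just short of it. Of the 8 other miRNAs within 5 percentage points of miR-450b-5p in G and C content, 1 had a lower ratio, and their median was -0.90. For miR-450a-5p, 3 of 20 were lower and the median was -0.28. The 1 ng/mL comparison had a rho of 0.09, the adjusted miR-450b-5p value was -0.83, and the adjusted miR-450a-5p value was -0.48, just short of 1.4-fold. In BEAS-2B the miR-424-5p ratio at 5 ng/mL was 0.82 after the adjustment, and 31 of 33 miRNAs of similar composition had lower ratios. The part of base composition in these differences was not tested.

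**Figure D5:**
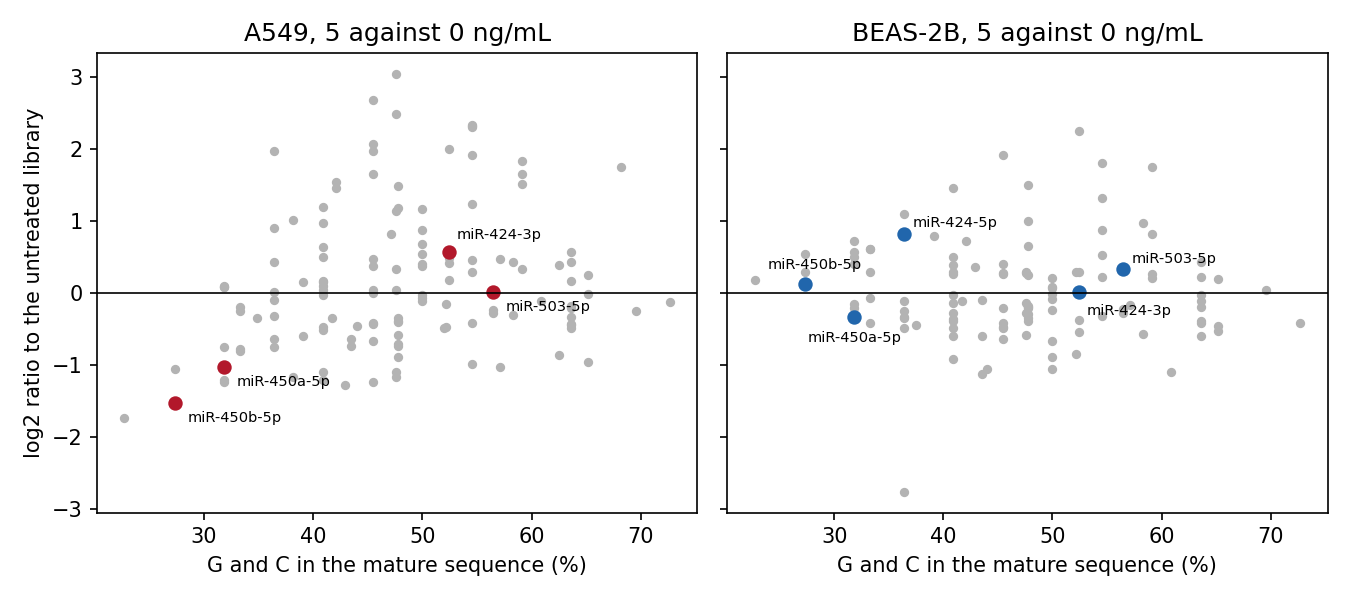
Log2 ratio at 5 against 0 ng/mL (vertical axis) against the percentage of G and C in the mature sequence for miRNAs with an ND of at least 8, A549 on the left and BEAS-2B on the right. Each grey point is 1 other miRNA and each coloured point is 1 member; in A549 the 2 miR-450 products sit at low G and C content together with other miRNAs of negative ratio, with a Spearman rho of 0.24 over all points, against -0.08 in BEAS-2B.

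miR-424-5p and miR-503-5p were last set beside 5 listed miRNAs with the miR-16 seed (miR-15a-5p, miR-15b-5p, miR-16-5p, miR-195-5p and miR-497-5p). The 2 members gave 52.4% of the counts of all 7 miRNAs in untreated A549 (49.8 to 54.9), 53.5% with 1 ng/mL and 55.5% with 5 ng/mL. In BEAS-2B they gave 20.9% (19.9 to 22.1), 36.0% (34.3 to 37.9) and 25.0% (23.8 to 26.3). The interval for untreated A549 holds an even split, and most of this share was miR-503-5p, whose seed matches at bases 2 to 7 only. miR-16-5p itself had 493, 533 and 326 counts over the A549 doses and 3114, 1306 and 2956 over those of BEAS-2B. miR-424-5p had 0.109 counts for each count of miR-16-5p in untreated BEAS-2B, 0.231 with 1 ng/mL and 0.160 with 5 ng/mL. In A549 it had 0.400, 0.353 and 0.307.

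Of the 5 seed relatives, 1 reached the ND threshold in A549 and was past the criteria at neither dose. In BEAS-2B, 2 reached it, and both fell at 1 ng/mL, where 13.3% of all miRNAs were called lower. The falls were 0.66 for miR-16-5p and 0.61 for miR-15b-5p on the log2 scale, and neither was past the criteria at 5 ng/mL. In the untreated libraries both were lower in A549, with log2 differences of -2.22 for miR-16-5p and -1.83 for miR-15b-5p. Over all miRNAs, 28.1% were called lower in A549, and with 2 eligible relatives nothing is read from these shares. Of 6 listed miRNAs of the cluster that holds miR-106a and miR-363, 370 kb away on the same chromosome, only miR-92a-3p reached the threshold, and it also has a hairpin on chromosome 13. Its log2 ratio at 5 ng/mL was 0.30 in A549 and 0.53 in BEAS-2B, where it rose, beside 20.0% of all miRNAs called higher. The rise was just past 1.4-fold on the TMM scale. In that comparison the median of all miRNAs shifted by -0.12 with DESeq2 size factors, -0.41 with total counts and -0.35 without scaling. Without miR-21-5p in the total it shifted by 0.18. The negative shifts exceed the margin of this call, which therefore depends on the scaling.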

How the data were processed

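The authors deposited whole-number read counts per mature miRNA for 6 libraries, made with a small RNA library kit from total RNA. The submitters' processing notes name Bowtie2 and bedtools. Versions, genome build, annotation release, strand and the treatment of reads that match several places are not given in the sources used here. The count tables were used as deposited. TMM factors over all 6 libraries came from edgeR 4.0.16 (R 4.3.3), and the mean effective library size was 749498. ND was log2(normalised count + 1). How the study normalised these counts is not stated. Interval estimates used SciPy 1.17.1: Clopper-Pearson for shares, ratios of 2 libraries and ratios within a library, and Poisson for levels. Conditional odds ratios were used for changes of a ratio between libraries and for the difference between lines. Only the intervals for ratios of 2 libraries were tested on simulated counts. Molecular identifiers were not mentioned, so intervals cover counting error only.

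The members, lists and criteria were chosen with earlier results of these data known. All 7 members were named. Members of the 2 comparison lists were named where past the criteria against control, and the miRNAs with values nearest the summed cluster count were named by distance. Sequence comparisons and neighbours named for scale follow the members. Alternatives were DESeq2 1.42.0 size factors, total counts with and without miR-21-5p, quantile normalisation (limma 3.58.1), TMM within lines or above 10 counts, no scaling, other pseudocounts and other thresholds. The trend on G and C content, the scalings of the difference between lines, of the untreated lines and of the dose step, and the arm ratios of other hairpins were chosen after seeing the data. RefSeq matched 2281 of the 2588 miRNAs.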

Additional observations from a re-analysis of the deposited data

Results flagged for a closer look

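Members and ratios within libraries were searched for opposite signs in the 2 lines, held at both 1 and 5 ng/mL. On the TMM scale 6 measures met this rule, with 1 library per group, and none of these differences was tested. Among the members, miR-424-3p, miR-503-5p, miR-542-3p and miR-450a-5p did not meet it. Nor did the ratio by hairpin position, that of miR-503-5p to miR-424-5p, or that of their sum to the seed relatives. Several measures share counts, such as those of miR-424-5p. The share of all miRNAs that meet the rule is not given, so nothing is read from the number that did. At 5 ng/mL the log2 ratio of A549 minus that of BEAS-2B was -1.64 for miR-424-5p and -1.66 for miR-450b-5p. For the log2 change of a ratio within libraries, it was 2.20 for miR-424-3p to miR-424-5p, 0.96 for miR-450a-5p to miR-450b-5p, -0.94 for miR-424-5p to miR-16-5p and -0.36 for the summed cluster to the seed relatives. At 5 ng/mL the intervals of the first 2 ratio changes lay on opposite sides of no change in the 2 lines. For miR-424-5p to miR-16-5p the A549 change of 0.768-fold had an interval of 0.574 to 1.02, and for the summed cluster the BEAS-2B change of 1.05-fold had one of 0.972 to 1.13. At 1 ng/mL the interval of the miR-424 arm ratio held no change in both lines. That of miR-450a-5p to miR-450b-5p did so in BEAS-2B (0.660 to 1.06). The sign of the miR-450b-5p ratio in BEAS-2B changed with the scaling, so its opposition between lines depends on that choice. So does the sign of miR-424-5p in BEAS-2B at 1 ng/mL. Other measures were opposite at 5 ng/mL without meeting the rule. For miR-542-3p the log2 ratios were -1.45 in A549 and 0.17 in BEAS-2B. The ratio of miR-503-5p to miR-424-5p changed 1.77-fold in A549 (1.35 to 2.34) and 0.705-fold in BEAS-2B (0.592 to 0.840). The summed cluster was not part of the search.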

How the results depend on the processing

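No paired analysis was possible because each group had 1 library. Of 137 recomputed counts and summed values, 47 moved, meaning that a count differed by more than 1.5 times or a log2 value left its 95% counting interval. The other 90 include 2 counts of calls that kept their size while the call turned from higher to lower. Of 437 member values, 69 moved. The cause of a movement was not tested unless the setting itself states it.

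At 5 ng/mL in A549, 3 members were past the criteria. There were 5 with an ND of 7 or without an ND criterion and 1 when both libraries had to reach it. At 1 ng/mL, 2 members were past the criteria, 0 at a fold of 2, 1 when the counting interval had to lie beyond 1.4-fold and 1 with the trend on G and C removed. In BEAS-2B at 5 ng/mL the count of 1 became 2 without miR-21-5p in the total, 2 with quantile normalisation or without an ND criterion, and 0 at an ND of 9 or a fold of 2. It stayed 1 under total-count scaling and without scaling, but there the 1 member was miR-450a-5p, lower, in place of miR-424-5p, higher. At 1 ng/mL the count of 0 became 1 with total-count scaling, 1 without miR-21-5p in the total, 2 without scaling and 1 without an ND criterion.

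For the summed cluster, the log2 ratio of A549 at 5 ng/mL was -0.72 with DESeq2 size factors, -0.47 with total counts, -0.75 with quantiles, -0.79 without scaling, -0.87 without miR-503-5p and -0.29 relative to the seed relatives. At 1 ng/mL it was -0.46, -0.50 and -0.50 under the first 3 settings and -0.52 without miR-503-5p. In BEAS-2B at 5 ng/mL it was 0.11 with DESeq2, -0.18 with total counts, 0.42 when miR-21-5p was left out of them, 0.15 with quantiles, -0.12 without scaling, 0.11 without miR-424-5p and 0.07 relative to the seed relatives. At 1 ng/mL it was -0.22 with total counts, 0.09 with quantiles, -0.38 without scaling, 0.12 with TMM on miRNAs above 10 counts, 0.08 without miR-503-5p and 0.86 relative to the seed relatives. The untreated difference was 0.07 with total counts, 0.38 with quantiles, 0.17 without scaling, 0.72 without miR-424-5p, 0.81 without miR-503-5p and 2.73 relative to the seed relatives. The difference between lines was -0.30 with total counts, -1.05 without miR-21-5p in them and -0.68 without scaling.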

Other observations

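Over 5 log2 differences (both doses in each line and the untreated lines against each other), the summed cluster was compared with 152 other miRNAs that had an ND of at least 8 in some library. The nearest by root mean square distance were miR-339-5p at 0.19, miR-93-5p at 0.19, miR-101-3p at 0.21, miR-339-3p at 0.21 and miR-30e-5p at 0.24. miR-339-5p had log2 ratios at 5 ng/mL of -0.96 in A549 and 0.20 in BEAS-2B, beside -0.63 and 0.23 for the summed cluster. The members themselves lay farther from their sum, from 0.45 for miR-503-5p to 0.72 for miR-424-3p among the 5 that reached the ND threshold. These differences share untreated libraries, so the distances are a description.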
